A study of Mus musculus with 2 samples.

Results

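Lysozymes cut the peptidoglycan of bacterial cell walls and are stored and secreted by phagocytes and by epithelia that face microbes. The mouse has a pair of closely related genes for the enzyme where most mammals have a single gene. *Lyz2* encodes lysozyme M of macrophages, monocytes and granulocytes and is the locus used in the LysM-Cre driver, while *Lyz1* encodes lysozyme P, known from the Paneth cells of the small intestine. *Lyz1* (ENSMUSG00000069515.6) and *Lyz2* (ENSMUSG00000069516.8) were found by their symbols, each as a single feature, and are 2 of the 55386 features counted in each library. The pair was selected on measured values of these same data, since *Lyz1* had stood among the leading genes of a steady-state macrophage cluster named from antigen-presenting or type-2 markers in an earlier analysis. The higher level of *Lyz1* in type-2 macrophages is therefore given as a description, with no test.

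The cells were CD45-positive immune cells sorted from the aorta, labelled as adventitia, of RankCreRosa26eYFP mice aged 16 weeks. In this line, Cre made from the *Rank* gene switches on a lasting eYFP reporter, so both groups carry the driver and the reporter allele. The steady-state group was untreated and pooled from 3 animals, and the other group received angiotensin II (AngII) at 1.8 µg/kg/min for 10 days and was pooled from 2 animals. Each group is a single droplet library (10x Genomics 3′ v3.1), so there are no replicates, animals cannot be told apart within a library, and a difference between conditions cannot be told apart from a difference between libraries. No p-value was computed.

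The steady-state library held 346 barcodes and 4009678 unique molecular identifiers (UMIs), each of which stands for a captured transcript molecule. The AngII library held 4419 barcodes and 20481854 UMIs. The libraries shared 0 barcode sequences. The cell filter asked for 300 to 6500 genes per barcode and no more than 5% of mitochondrial UMIs, and left 306 and 4198 cells. The AngII cells were far shallower, with a median of 1092 UMIs against 9105 at steady state. Cells were assigned to classes by gates on the UMIs of marker genes, and neither lysozyme was a marker. A class had to lead the next by 1.5 times, and 284 and 3454 cells passed, while 22 and 663 lay between classes and 0 and 81 had no class. Macrophage gates took 137 cells at steady state and 2294 on AngII.

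Levels are given as CPM, the UMIs of a gene summed over the cells of a class and scaled by all UMIs of the class. All ranges in parentheses are exact 95% intervals (Poisson for CPM, binomial for ratios and Clopper-Pearson for shares of cells) and cover counting error only. Reads come from the 3′ end and the annotated transcripts are of similar length, 1263 bases for *Lyz1* and 1316 for *Lyz2*, so the lysozymes were compared per UMI.

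Over all filtered cells, *Lyz2* was among the most abundant transcripts of both libraries. It stood at 8534 CPM (8439 to 8629) at steady state and 7973 (7932 to 8015) on AngII, ranks 6 and 7 among all features. *Lyz1* stood at 944 CPM (913 to 976) at steady state, rank 154, and at 134 (129 to 140) on AngII, rank 1095. *Lyz1* was thus the minor lysozyme of both libraries, and more so on AngII. The *Lyz1* to *Lyz2* UMI ratio was 0.111 (0.107 to 0.115) at steady state and 0.0169 (0.0162 to 0.0175) on AngII.

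At steady state, *Lyz2* was a general myeloid transcript. The 9 cells of the classical monocyte gate had 27095 CPM (26228 to 27984), the highest level of any gate, and *Lyz2* was their most abundant transcript, rank 1. The 22 type-2 macrophages, gated on *Ear2*, *Tnip3*, *Cd226* and *Retnla*, had 12455 CPM (12162 to 12753), and the 109 resident macrophages had 12314.5 (12114 to 12517). These gates were not separated, at a ratio of 1.01 (0.983 to 1.04), but the *Lyz2* ratio of type-2 to resident cells was 0.788 between clusters and 1.11 with cells thinned to 500 UMIs. The 12 nonclassical monocytes followed with 10161 CPM (9615 to 10730). Dendritic cells were an order lower, with 1583 CPM (1437 to 1740.5) in 13 type-1 conventional dendritic cells (cDC1) and 1294 (1101 to 1512) in 5 type-2 conventional dendritic cells (cDC2). The 48 B cells had 57.3 CPM (32.8 to 93.1) and the 39 T cells 24.1 (10.4 to 47.6), intervals that overlap. Gates of fewer than 5 cells gave 915 CPM in 3 neutrophils, 578 in 2 migratory dendritic cells and 5617 in 3 other macrophages. The 6 mast cells stood at 138 CPM and the 5 type-2 innate lymphoid cells (ILC2) at 21.5.

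*Lyz1* had a far narrower distribution at steady state. The type-2 gate had 5189 CPM (5001 to 5383), which made *Lyz1* the transcript of rank 13 in these cells, with *Lyz2* at rank 7. The resident gate had 133 CPM (113 to 156). The level in type-2 cells was 39.0 times (33.2 to 46.1) that of resident cells. The type-2 gate, with 7.19% of the filtered cells, held 83.1% of all *Lyz1* UMIs and 22.1% of all *Lyz2* UMIs. Monocytes had almost no *Lyz1*, with 3 UMIs in the classical gate (22.0 CPM, 4.54 to 64.4) and 2 in the nonclassical gate (15.7, 1.90 to 56.7). The cDC1 gate also had 3 UMIs (11.1 CPM, 2.28 to 32.4), and these last 3 classes were not separated from each other. B and T cells held 1 UMI each, at 3.58 and 3.02 CPM. No *Lyz1* UMI was found in cDC2 cells, mast cells, neutrophils, ILC2 or migratory dendritic cells. A count of 0 there allows up to 24.4 CPM in cDC2 cells and 228.8 in neutrophils, taken at 3 UMIs, so at this depth the absence was not shown for the small gates.

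A few cells carried much of the steady-state values. A single type-2 cell held 664 *Lyz1* UMIs, 23.2% of the class, and without the cells with the most UMIs of each lysozyme the type-2 level was 3175 CPM. The resident level was 83.2 CPM without them, since 1 cell held 41.0% of the resident *Lyz1* UMIs. The type-2 class remained the highest in both cases. When cells were clustered instead of gated, the cluster named type-2 had 2973 CPM of *Lyz1*. Genes of cycling cells (*Stmn1*, *Pclaf* and *Top2a*) were among its leading genes, and it held 20 of the 22 cells of the type-2 gate among its 40 cells. The *Lyz1* ratio of type-2 to resident cells was 23.2 between clusters, whereas between gates it was 59.5 with every cell thinned to 1000 UMIs and 119 with cells thinned to 500. The clusters named resident included 44 cells led by *Mgp*, *Tagln* and *Ccl3*.

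The ratio of the lysozymes also differed between the classes. At steady state it was 0.417 (0.399 to 0.435) in type-2 macrophages, the highest value of any gate. It was 0.0108 (0.00918 to 0.0127) in resident macrophages, and 0.00678 without the cells with the most UMIs. The classical monocytes had 0.000813 (0.000168 to 0.00238), the nonclassical monocytes 0.00155 (0.000187 to 0.00559) and the cDC1 cells 0.00699 (0.00144 to 0.0206). The intervals of the monocyte classes overlapped, and that of cDC1 cells overlapped those of resident cells and monocytes. Over all macrophage gates the ratio was 0.140 (0.134 to 0.145). It was 0.0851 without the cells with the most UMIs, 0.0732 and 0.0602 with cells thinned to 1000 and 500 UMIs, and 0.0764 with the mean of the CPM of each cell.

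On AngII, *Lyz1* was again highest in type-2 macrophages, at a lower level. The 425 type-2 cells had 652 CPM (618 to 687), rank 230 in the class, and held 57.8% of the library's *Lyz1* UMIs and 15.8% of its *Lyz2* UMIs. The 794 resident cells had 142 CPM (131 to 154) and the 591 other macrophages 67.3 (48.1 to 91.6). The *Lyz1* level in type-2 cells was thus 4.59 times (4.16 to 5.07) that of resident cells. A single type-2 cell held 24.8% of the *Lyz1* UMIs of the class. Without the cells with the most UMIs of each lysozyme, the type-2 level was 508 CPM. The 242 classical monocytes had 18.6 CPM (12.0 to 27.5), and 68.0% of those UMIs lay in a single cell. The 12 nonclassical monocytes had 266 CPM, but their 14 UMIs all came from 1 cell. Lower levels were found in migratory dendritic cells (14.5 CPM), neutrophils (12.7), cDC1 (11.2) and cDC2 (10.8), whose intervals overlapped one another and that of classical monocytes. T cells had 4.07 CPM (1.32 to 9.50), which overlaps the dendritic cell and neutrophil intervals but not that of classical monocytes, and B cells no UMI, with a limit of 7.48 CPM.

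The low *Lyz1* levels were the least stable. Without the cells with the most UMIs of each lysozyme, *Lyz1* on AngII fell to 6.08 CPM in classical monocytes, 5.16 in neutrophils and 0 in nonclassical monocytes. When cells were clustered, it stood at 238 CPM in the clusters named other macrophages, 123.5 in neutrophils, 86.8 in classical monocytes and 0.946 in cDC2 on AngII. The clusters named other macrophages included 110 cells with 369 CPM, led by *Cd209a*, *Tnip3* and *Clec4b1*, so 238 CPM is not a level of other macrophages alone. The clusters named neutrophil held 455 cells, against 126 in the gate. A cluster of 281 of these cells had 169 CPM and a cluster of 125 had 4.70, so 123.5 CPM is not a level of neutrophils alone. In cDC2 cells on AngII, *Lyz1* was 73.7 CPM with cells thinned to 1000 UMIs and 83.1 as the mean of the CPM of each cell. A steady-state cluster named for nonclassical monocytes had 863 CPM, but its 29 cells were the 12 nonclassical and the 9 classical monocytes of the gates, 3 neutrophils and 5 cells between classes, so this is not a level of nonclassical monocytes alone. The type-2 clusters stayed above all of these at steady state, with 2973 CPM, and on AngII, with 833.

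*Lyz2* on AngII was again highest in classical monocytes, at 16690.2 CPM (16472 to 16910.0), rank 3 in that class. Resident cells had 11610.2 CPM (11505 to 11716), nonclassical monocytes 11245 (10358 to 12189), type-2 cells 10589.7 (10452 to 10728) and other macrophages 8821 (8584 to 9063). The macrophage classes therefore lay within a narrow band, and the nonclassical monocytes were not separated from resident or type-2 cells. Without the cells with the most UMIs the nonclassical level was 7496 CPM. Neutrophils had 1404 CPM (1289 to 1526), cDC2 867 (811 to 926), cDC1 663 (623 to 706), T cells 547 (507 to 590.2), B cells 442 (379 to 512) and migratory dendritic cells 329 (265 to 404). The 19 mast cells had 510.0 CPM (272 to 872). These lower levels were not stable. *Lyz2* in neutrophils was 7616 CPM between clusters, 2257 as the mean of the CPM of each cell and 833 in cells with at least 1000 genes. The clusters named neutrophil held 455 cells, against 126 in the gate. A cluster of 281 of these cells had 9946 CPM and a cluster of 125 had 965, so 7616 CPM is not a level of neutrophils alone. In cDC2 cells, *Lyz2* was 567 CPM between clusters and 2203 as the mean of the CPM of each cell.

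The ratio of *Lyz1* to *Lyz2* on AngII was 0.0616 (0.0583 to 0.0650) in type-2 cells, 0.0122 (0.0112 to 0.0133) in resident cells and 0.00763 (0.00544 to 0.0104) in other macrophages. For other macrophages it was 0.0265 between the clusters of that name and 0.00090 in the 7 cells of at least 5000 UMIs. Classical monocytes had the lowest ratio of the gates with more than 100 cells and a *Lyz1* UMI, at 0.00111 (0.000721 to 0.00165), and 0.000373 without the cells with the most UMIs. The ratio in type-2 cells was above that of every other class of at least 20 cells, although the interval of the 31 migratory dendritic cells, with 4 *Lyz1* UMIs and a ratio of 0.0440 (0.0117 to 0.116), overlapped it.

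**Figure D1:**
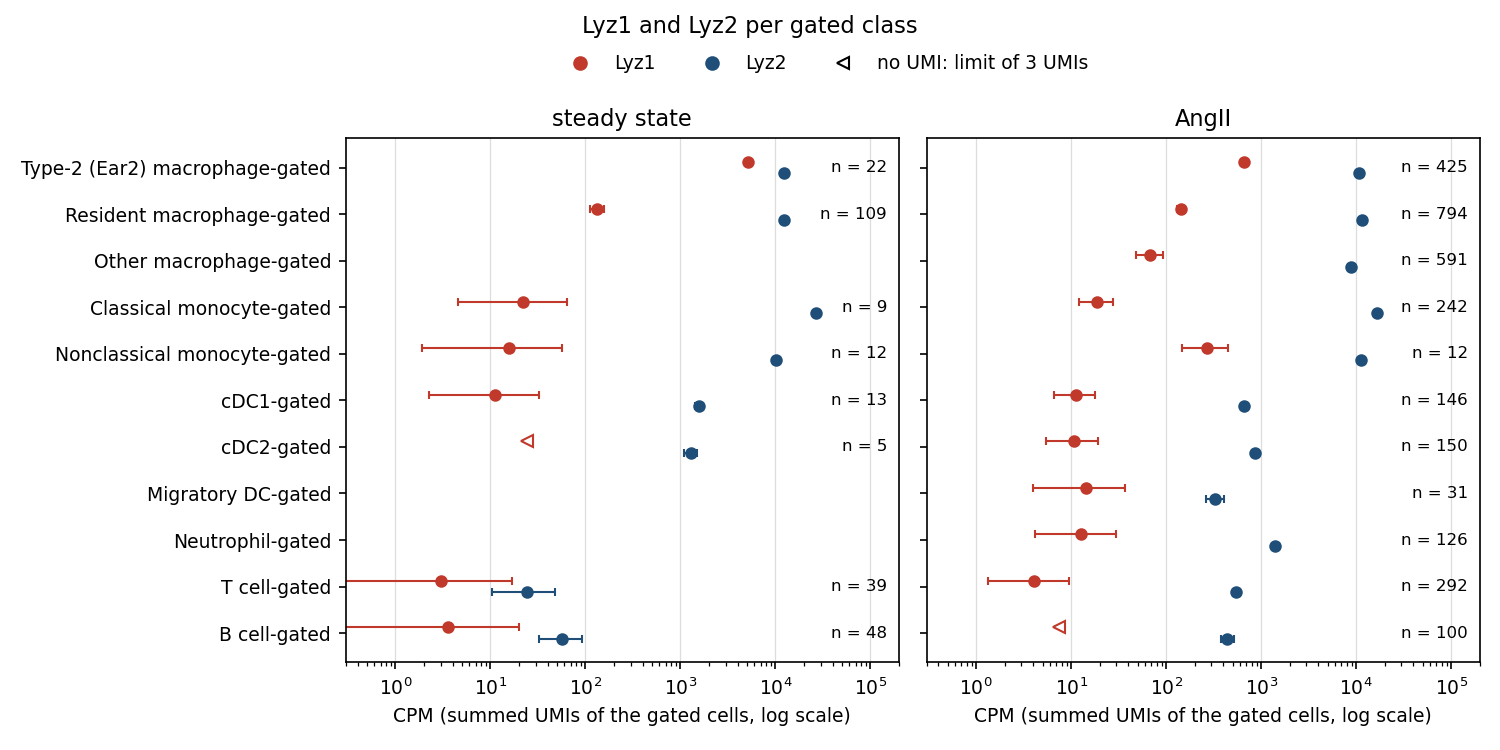
CPM of *Lyz1* (red) and *Lyz2* (blue) on a log scale in gated classes with at least 5 cells, steady state on the left and AngII on the right. Bars are exact 95% intervals, an open triangle marks a count of 0 drawn at the limit of 3 UMIs, and n is the number of cells. *Lyz2* is high in all macrophage and monocyte gates, while *Lyz1* peaks in the type-2 gate at 5189 and 652 CPM.

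The marker lists were read in the type-2 gate. In the Type-2 (Ear2) macrophage gate, all 4 markers of the class were found in both libraries, with a summed level of 34670.1 CPM at steady state and 8645 on AngII, most of it *Retnla*, which encodes a secreted resistin-like protein. The cells were gated on these markers, so their presence is no check of the class. All 9 markers of the Macrophage (general) list were found in the same cells, at 8535 and 13079 CPM, led by *Apoe*. The type-2 gate of the AngII library held more monocyte signal, with a summed level of the 5 Classical monocyte markers of 353 CPM, led by *Plac8* at 149, against 25.4 CPM at steady state, led by *F10* at 19.9 with *Ly6c2* and *Hp* at 0. The 9 markers of the Resident macrophage list summed to 672 CPM on AngII and 1291 at steady state, led by *F13a1*. Of the 5 cDC2 markers, 3 were found at steady state (459 CPM, led by *Cd209a* at 169, with *Flt3* and *Ifitm1* at 0) and 5 on AngII (393 CPM, led by *Clec10a* at 149.7). Apart from the macrophage, Classical monocyte and cDC2 lists, no list summed to more than 112 CPM at steady state (ILC2, from *Il1rl1*) or 95.6 on AngII (Neutrophil, led by *Mmp9*). The part of these signals in the lower *Lyz1* of type-2 cells on AngII was not tested.

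Shares of cells with at least 1 UMI depend on depth and on free RNA in the droplets, and T and B cells together served as the background. At steady state, *Lyz1* was found in 77.3% (54.6 to 92.2) of type-2 cells and 18.3% (11.6 to 26.9) of resident cells, against 2.30% (0.280 to 8.06) of 87 T and B cells. Median depths were 26183.5, 9541 and 6519 UMIs. With each cell thinned to 1000 UMIs, the *Lyz1* shares were 68.2% (45.1 to 86.1) of 22 type-2 cells, 4.63% (1.52 to 10.5) of 108 resident cells and 0% (up to 4.2) of 86 T and B cells, with 0, 1 and 1 shallower cells left out. The type-2 share was the highest at both depths, which is a description, since *Lyz1* was selected on such values. The interval of the resident share overlapped that of the background once depth was equal. *Lyz2* was found in 100% of type-2, 99.1% of resident and 21.8% of T and B cells, and after thinning in 95.5%, 100% and 2.33%.

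On AngII, *Lyz1* was found in 23.8% (19.8 to 28.1) of type-2 cells, 13.4% (11.1 to 15.9) of resident cells and 1.28% (0.415 to 2.95) of 292 T and 100 B cells, at median depths of 1176, 1662.5 and 1075.5 UMIs. Thinned to 1000 UMIs, the shares were 18.8% (14.1 to 24.2), 7.38% (5.32 to 9.91) and 0% (up to 1.72), over 245, 542 and 213 cells, with 180, 252 and 179 shallower cells left out. Type-2 and resident cells were above the background at equal depth. The *Lyz1* share of classical monocytes was 3.31% (1.44 to 6.41) and 0.741% (0.0188 to 4.06) after thinning, with intervals that overlap those of the background.

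*Lyz2* gave a high background on AngII. It was found in 63.5% (58.5 to 68.3) of T and B cells, and in 31.9% (25.7 to 38.6) after thinning, against 98.3% and 99.2% of type-2 cells. Its level in T and B cells was 521 CPM (487 to 557), compared with 39.3 (25.2 to 58.5) at steady state, 13.3 times (8.85 to 20.8) that level. The AngII level depended on depth, with 239 CPM in T and B cells of at least 5000 UMIs and 1673 with every cell thinned to 500 UMIs, where the steady-state level was 69.0 CPM. It was above the steady-state level in both settings. Between clusters the gap was much smaller, with 957 CPM on AngII against 653 at steady state, so the size of the difference between libraries depended on how the cells were drawn. The steady-state cluster named T cell, with 43 cells, had 1036 CPM, against 24.1 in the 39 cells of the T cell gate. The gated T and B cells of that library held 24 *Lyz2* UMIs in all, so 653 CPM is not a level of the gated lymphocytes. The *Lyz2* level in T and B cells was 6.54% of the level over the whole AngII library and 0.461% at steady state. Other macrophage transcripts had like shares in T and B cells, with a median of 6.15% for 9 macrophage markers on AngII (range 3.93 to 8.91) and 0.487% at steady state (0 to 3.95). Neutrophils, cDC1 and cDC2 stood above this background with all UMIs and with cells thinned, while migratory dendritic cells changed place. With cells thinned to 500 UMIs, cDC1 stood at 1808 CPM and migratory dendritic cells at 1226, against 1673 in T and B cells. Between clusters, cDC2 stood at 567 CPM, below the 957 of T and B cells. Thinned to 1000 UMIs per cell, *Lyz2* on AngII was at 732 CPM in T and B cells, 857 in migratory dendritic cells, 1038 in cDC1, 1674 in cDC2 and 1404 in neutrophils. With all UMIs, migratory dendritic cells were below the lymphocyte level instead. The cDC1 level was then 1.27 times (1.16 to 1.40) the lymphocyte level, and with the lymphocyte level subtracted *Lyz2* fell to 142 CPM in cDC1, 346 in cDC2 and 882 in neutrophils. *Lyz1* in T and B cells stood at 3.28 CPM at steady state and 3.07 on AngII between gates, but at 44.9 and 7.95 between clusters. The steady-state cluster named T cell had 71.6 CPM of *Lyz1*, against 3.02 in the T cell gate.

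*Lyz1* UMIs were concentrated in few cells. At steady state, 14 of 306 cells held 90% of the *Lyz1* UMIs, whereas 119 cells were needed for 90% of *Lyz2*. On AngII, these numbers were 151 and 1203 of 4198 cells. The 10% of cells with the most *Lyz1* at steady state, 31 cells, held 99.2% of its UMIs, and the 31 cells with the most *Lyz2* held 43.4%. Cells with at least 10 *Lyz1* UMIs numbered 21 at steady state, of which 15 (71.4%) were in the type-2 gate and 3 in the resident gate. On AngII they numbered 39, with 22 (56.4%) in the type-2 gate and 10 in the resident gate.

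Even within the type-2 gate, cells differed widely in their use of the pair. In cells with at least 20 lysozyme UMIs, the share of *Lyz1* among both lysozymes ranged from 0% to 56.1% over the 22 steady-state type-2 cells, with a median of 17.7%. In 5 of these cells no *Lyz1* was found, in 8 the share was above 25%, and in 2 it was above 50%, so that *Lyz1* was then the major lysozyme. On AngII, 145 type-2 cells were deep enough, with a range from 0% to 47.2%. No *Lyz1* UMI was found in 89 of them, and 13 were above 25%. Resident cells had *Lyz1* shares of at most 18.2% at steady state (102 cells, 83 without *Lyz1*) and 33.3% on AngII (360 cells, 280 without). The type-2 cells of both libraries thus held cells with and without *Lyz1*, and the cells above 50% were found at steady state.

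**Figure D2:**
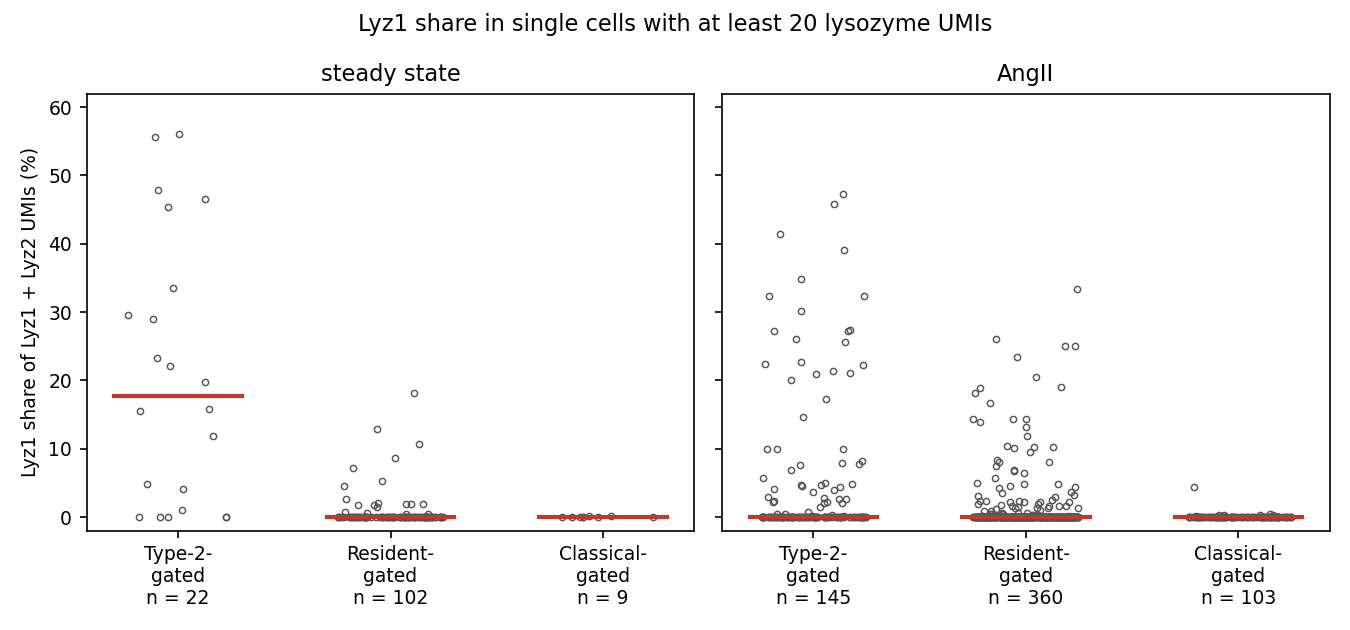
*Lyz1* as a percentage of *Lyz1* and *Lyz2* UMIs in each cell with at least 20 UMIs of the pair, by gate, steady state on the left and AngII on the right. Each circle is a cell, the red line is the median of the gate and n is the number of cells. The type-2 cells spread from 0 to 56.1% at steady state and to 47.2% on AngII, and most cells of the other gates lie at 0.

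Among all macrophage-gated cells, *Lyz1* rose with the number of type-2 markers found in a cell. At steady state, cells with no UMI of the 4 markers had 18.7 CPM of *Lyz1* (8.08 to 36.9, 50 cells), and cells with 1 marker had 45.5 (30.2 to 65.8, 56 cells). Cells with 2, 3 and 4 markers had 604 (9 cells), 2494 (7 cells) and 5768 CPM (15 cells). The *Lyz2* level stayed between 9440 and 12795 CPM over the same groups. On AngII, *Lyz1* stood at 52.5, 113, 366, 420 and 1283 CPM with 0 to 4 markers (1305, 634, 211, 109 and 35 cells), a rise at each step, and *Lyz2* stayed between 9046 and 13022 CPM. The intervals overlapped between 0 and 1 marker at steady state and between 2 and 3 markers on AngII. Median depth rose as well, from 8998.5 to 27351 UMIs at steady state and from 903 to 24276 on AngII. A deeper cell shows more markers, and the part of depth in the rise was not tested.

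**Figure D3:**
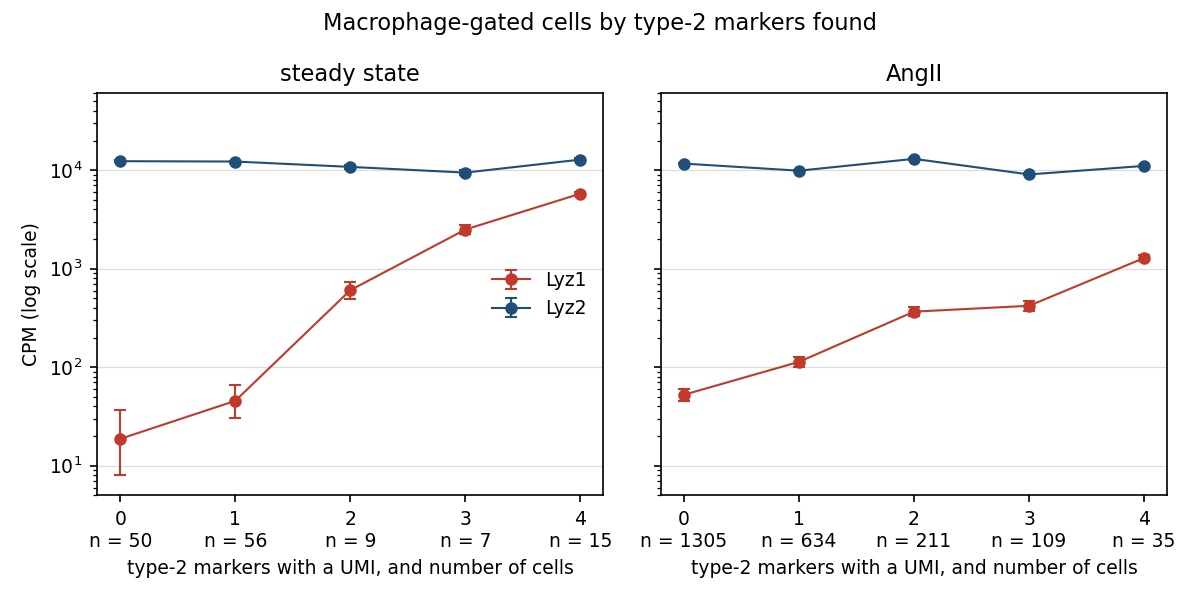
CPM of *Lyz1* (red) and *Lyz2* (blue) on a log scale in macrophage-gated cells grouped by how many of *Ear2*, *Tnip3*, *Cd226* and *Retnla* had a UMI, steady state on the left and AngII on the right. Bars are exact 95% intervals and n is the number of cells. *Lyz1* climbs from 18.7 to 5768 CPM at steady state and from 52.5 to 1283 CPM on AngII, and *Lyz2* stays near its level.

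The type-2 genes were then taken singly within the macrophage gates. With a UMI of *Cd226*, an adhesion receptor best known from lymphocytes, *Lyz1* was 109 times (81.7 to 149) its level in cells without at steady state (26 and 111 cells) and 8.63 times (7.88 to 9.45) on AngII (173 and 2121 cells). For *Retnla*, the ratio was 137 (69.7 to 319) and 5.80 (5.26 to 6.41), and the 52 steady-state cells without it held 8 *Lyz1* UMIs. *Ear2*, an eosinophil-associated ribonuclease, gave 15.7 (14.1 to 17.6) and 5.63 (5.15 to 6.15), and *Tnip3*, a regulator of NF-kB signalling, 16.9 (15.1 to 19.0) and 4.21 (3.83 to 4.63). Cells with a UMI of any of these 4 genes had more *Lyz1* in both libraries. The 4 are the markers of the type-2 gate and *Lyz1* was selected on values of these data, so this is a description. Cells with each gene were also deeper. For *Ear2*, median depths with and without it were 26522 and 9704 UMIs at steady state, and 1742.5 and 1004.5 on AngII. The part of depth in these ratios was not tested. For the lectin gene *Mgl2*, the ratio was 0.388 (0.342 to 0.441) at steady state and 6.81 (6.0 to 7.76) on AngII. At steady state 9 cells lacked *Mgl2*, of which 33.3% held a *Lyz1* UMI, so no direction is given for that library. *Clec10a*, a close relative of *Mgl2*, gave 2.15 and 1.89. On AngII, cells with *Chil3*, which encodes a chitinase-like protein, had 0.238 times (0.199 to 0.281) the *Lyz1* level of cells without. No macrophage-gated cell of the steady-state library had a UMI of *Chil3*. For the mannose receptor gene *Mrc1*, the AngII ratio was 5.19 (4.02 to 6.81). The steady-state ratio was 1.95 (0.538 to 16.1), an interval that spans 1, with 2 cells that lacked *Mrc1*. *Lyz2* ratios for the same genes lay between 0.865 and 1.43 in both libraries.

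*Lyz1* did not follow *Retnla* in resident cells. *Retnla* stood at 7267 CPM in resident cells at steady state and at 236 on AngII, while *Lyz1* stood at 133 and 142 CPM. In type-2 cells, *Retnla* stood at 32966 CPM at steady state and 7083 on AngII, a drop in the direction of *Lyz1*. *Ear2* moved less in type-2 cells, from 1055 to 833 CPM, and *Tnip3* was higher on AngII, at 604 against 404 CPM.

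Set side by side, the libraries differed in *Lyz1* much more than in *Lyz2*. Over all macrophage gates, *Lyz1* stood at 1677 CPM (1618 to 1737) at steady state and 228 (218 to 238) on AngII, a ratio of 0.136 (0.128 to 0.144). The steady-state *Lyz1* level fell to 989 CPM without the cells with the most UMIs, and to 874 and 729.9 with cells thinned to 1000 and 500 UMIs. *Lyz2* stood at 11997 (11838 to 12157) and 11029 CPM (10961 to 11098), a ratio of 0.919 (0.906 to 0.933). The *Lyz1* ratio was 0.226 with cells thinned to 1000 UMIs and 0.25 with cells thinned to 500. The *Lyz2* ratio turned to 1.08 when cells were clustered, so no direction is given for *Lyz2* over all macrophages.

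Within the type-2 gate, the ratio of AngII to steady state was 0.126 (0.118 to 0.134) for *Lyz1* and 0.850 (0.828 to 0.874) for *Lyz2*. The *Lyz1* ratio was 0.280 between the clusters named type-2, of which the steady-state cluster was led in part by genes of cycling cells and the AngII cluster held 221 of the 425 cells of the gate, and 0.205 when cells were gated on a profile thinned to 1000 UMIs. The *Lyz2* ratio between type-2 clusters turned to 1.22. *Lyz1* in type-2 cells was lower on AngII in every setting run, and the size of the difference depended on how the cells were drawn. In resident cells, the *Lyz1* ratio was 1.07 (0.892 to 1.28), an interval that spans 1, and the *Lyz2* ratio was 0.943 (0.925 to 0.961). The resident *Lyz1* ratio was 1.66 with the gate on thinned profiles and 4.39 with cells thinned to 500 UMIs. Classical monocytes had 0.616 times (0.595 to 0.638) the steady-state *Lyz2* on AngII, and cDC1 cells 0.419 times (0.374 to 0.470). The cDC1 direction turned between the clusters named cDC1, with 2321 CPM on AngII against 1678 at steady state, and with the mean of the CPM of each cell. The AngII clusters of that name held 733 cells, against 146 in the gate. A cluster of 139 of these cells was led by genes of cycling cells, so 2321 CPM is not a level of cDC1 cells alone. With cells thinned to 1000 UMIs, the cDC1 levels were 1038 on AngII and 1462 at steady state, so no direction is given for cDC1 cells.

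Type-2 cells of the AngII library were also grouped by depth. Type-2 cells with fewer than 1000 UMIs had 452 CPM of *Lyz1* (341 to 586, 180 cells), those with 1000 to 5000 UMIs 618 (533 to 713, 161 cells) and those with at least 5000 UMIs 672 (634 to 712, 84 cells). The *Lyz1* to *Lyz2* ratio was 0.0451 (0.0339 to 0.0589), 0.0630 (0.0541 to 0.0730) and 0.0624 (0.0588 to 0.0663) in the same order. At steady state, 21 of the 22 type-2 cells had at least 5000 UMIs, with 5130.4 CPM and a ratio of 0.412 (0.395 to 0.431). Among type-2 cells of at least 5000 UMIs the AngII level was thus also the lower, at a median depth of 19702 UMIs against 26346, and the part of depth in the difference was not tested. Resident cells with at least 5000 UMIs had 134 CPM of *Lyz1* in both libraries (113 to 157 over 96 cells at steady state, and 121 to 147 over 214 cells on AngII). This match rests on few cells. Over resident cells of any depth, the levels without the cells with the most UMIs were 83.2 CPM at steady state and 122.5 on AngII.

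The eYFP reporter is built to mark cells with a history of *Rank* expression, and a cell was called *Yfp*+ from 1 UMI. A deeper cell is more often called, and free RNA can add to the calls. The background in T and B cells was 3.45% (0.717 to 9.75) of cells at steady state and 2.81% (1.41 to 4.97) on AngII, against 71.5% (63.2 to 78.9) and 14.7% (13.3 to 16.2) of cells in the macrophage gates. In the type-2 gate on AngII the *Yfp*+ share was 11.1% (8.24 to 14.4), with 29 of the 47 *Yfp*+ cells called from a single UMI, and with cells thinned to 1000 UMIs it was 4.90% (2.56 to 8.40) against 0.939% (0.114 to 3.35) of T and B cells, intervals that overlap. The *Yfp* split is therefore given as a description of cells with and without a *Yfp* UMI, and the part of depth and free RNA in it was not tested. For the thinned ratios of *Yfp*+ over *Yfp*− cells, the call was made with all UMIs and the lysozyme counts were thinned afterwards. Thinning therefore does not remove the part of depth in the call. At steady state, *Lyz1* stood at 1083 CPM in the 98 *Yfp*+ and 3692 CPM in the 39 *Yfp*− cells of the macrophage gates, a ratio of 0.293 (0.273 to 0.315). The classes are unequally divided, since resident cells were 83 of the *Yfp*+ and 26 of the *Yfp*− cells, and type-2 cells were 11 of each. Within the type-2 gate, the *Lyz1* ratio was 0.750 (0.697 to 0.808), from 4502 and 6000 CPM. Thinned to 1000 UMIs, it was 0.912 (0.614 to 1.35), an interval that spans 1, and thinned to 500 UMIs it was 1.0. Within the resident gate, the ratio was 1.39 (0.826 to 2.50), which also spans 1. *Lyz2* stood at a ratio of 1.0 (0.969 to 1.03) over all macrophage gates, but at 1.25 (1.11 to 1.40) with cells thinned to 1000 UMIs and 1.32 between clusters, so a like level is not claimed.

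On AngII, *Lyz1* was higher in *Yfp*+ macrophages with all UMIs, but not with cells thinned to 1000 UMIs. *Yfp*+ macrophages had 322 CPM and *Yfp*− macrophages 172, a ratio of 1.87 (1.72 to 2.04) over 337 and 1957 cells, with median depths of 5304 and 952 UMIs. With cells thinned to 1000 UMIs, the *Lyz1* ratio was 0.984 (0.713 to 1.34), an interval that spans 1, but it was 1.55 with cells thinned to 500 UMIs and 2.07 in cells of at least 5000 UMIs. Within the type-2 gate it was 3.15 (2.83 to 3.51), from 1292 CPM in 47 *Yfp*+ and 410.0 in 378 *Yfp*− cells, and 1.62 (1.06 to 2.41) with cells thinned to 1000 UMIs and 1.34 with cells thinned to 500. Without the cells with the most UMIs, the type-2 ratio was 1.88 and the *Lyz2* ratio of the same gate turned from 1.08 to 0.944. The resident ratio of *Lyz1* was 1.07 (0.904 to 1.27). The *Lyz2* ratio over all macrophage gates was 1.06 (1.05 to 1.08), and 1.11 with cells thinned to 1000 UMIs.

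The pattern of each lysozyme over classes was compared with that of 8799 genes with at least 200 UMIs, by Pearson's r of log2(CPM + 10) over the 15 classes with at least 20 cells. The points share libraries and depth, and gate markers shaped them, so r is a description. The genes most like *Lyz1* were *Socs6* (0.933), a suppressor of cytokine signalling, *Cavin1* (0.932), a coat protein of caveolae, *Retnla* (0.927), which is a gate marker, *Dusp23* (0.922), a phosphatase, and *Gfra2* (0.914), a receptor for neurturin. All 5 were highest in type-2 cells of the steady-state library, with *Socs6* at 297 CPM and *Gfra2* at 105. The genes most like *Lyz2* were *Rab1a* (0.968), a GTPase of transport from the endoplasmic reticulum, the chemokine genes *Ccl6* (0.967) and *Ccl9* (0.956), the endocytic receptor gene *Lrp1* (0.957) and *Pid1* (0.95). The lysozymes were less like each other, at r = 0.666, where *Lyz2* took rank 341 among the genes most like *Lyz1*.

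Other members of the lysozyme family were close to absent. Of 8 genes (*Lyzl1*, *Lyzl4*, *Lyzl6*, *Spaca3*, *Spaca5*, *Lalba*, *Lyg1* and *Lyg2*), 1 had a UMI at steady state and 2 on AngII, and none reached 10 CPM. *Lyzl4*, a sperm lysozyme-like gene, was the highest, at 0.274 and 0.333 CPM. Lysozyme transcripts of these cells were therefore those of *Lyz1* and *Lyz2*.

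Among 23 other antibacterial genes of granules and phagocytes, 11 were above 10 CPM over all filtered cells at steady state and 14 on AngII. None exceeded *Lyz2* in either library, while *Lyz1* was exceeded by 1 gene at steady state and by 10 on AngII. The highest was *Cyba*, a subunit of the phagocyte oxidase, at 946 and 1447 CPM. In type-2 cells, where *Lyz1* stood at 5189 CPM at steady state and 652 on AngII, *Cyba* stood at 1509 and 1800.1. The neutrophil genes *S100a8* and *S100a9* were highest in the neutrophil gate, with 25724 and 29882 CPM on AngII, where *Lyz2* was at 1404 CPM. *Chil3* followed classical monocytes, at 1079.7 CPM at steady state and 1120.2 on AngII, and had no UMI in steady-state type-2 cells.

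Of 14 genes for recognition of peptidoglycan or uptake of its fragments, 9 at steady state and 8 on AngII were above 10 CPM, and none exceeded either lysozyme over all cells. The highest was *Slc15a3*, a lysosomal peptide transporter, at 61.1 and 106 CPM. In type-2 cells it stood at 92.5 CPM at steady state and 117 on AngII. *Nod2*, a sensor of muramyl dipeptide, stood at 5.44 and 5.13 CPM in type-2 cells, and *Tlr2* at 30.8 and 67.2.

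Of 8 transcription factors known from myeloid lysozyme expression, 7 were above 10 CPM in each library, led by *Cebpb* at 1125 and 1401 CPM. *Cebpb* was higher in steady-state classical monocytes (4730.1 CPM) than in type-2 (778) or resident cells (1214). *Spi1*, the gene of PU.1, stood at 279 CPM in type-2 and 368 in resident cells at steady state, and at 423 and 429 on AngII. *Klf4* was lower in type-2 than in resident cells, at 558 against 1675 CPM at steady state and 315 against 527 on AngII. *Cebpe*, a factor of granulocyte maturation, was higher in type-2 cells, with 30.8 CPM (23.8 to 39.2) against 1.0 (0.273 to 2.56) in resident cells on AngII. At steady state it had 7.25 (1.98 to 18.6) against 1.71 CPM (0.207 to 6.17), intervals that overlap.

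The 9 type-2 macrophage genes were all above 10 CPM over the filtered cells of both libraries. Of these, 2 exceeded *Lyz1* at steady state and 7 on AngII, and none exceeded *Lyz2*. *Retnla* led them, at 7895 CPM at steady state and 948 on AngII. *Lyz1* itself stood at 944 and 134 CPM over the same cells.

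Both lysozymes lie on chromosome 10 (GRCm38, GENCODE M21 annotation), on the minus strand. *Lyz2* spans chr10:117277331-117282321 and *Lyz1* chr10:117287797-117292868, 4 exons each, with 5475 bases between them. A further 12 annotated genes lie within 200 kb, none of which overlaps a lysozyme. Of these, 3 had a UMI at steady state and 6 on AngII. *Yeats4* stood at 72.6 and 66.5 CPM, *Cpsf6* at 72.4 and 76.0 and *Frs2* at 16.4 and 10.8, each far below either lysozyme at steady state. No neighbour had a level near that of *Lyz2*.

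The transcripts are close copies, so it matters how well reads can tell them apart. Over 1262 aligned bases the annotated transcripts differed at 51, an identity of 96.0%, and the 447 coding bases differed at 22. Over the last 500 bases, from which 3′ reads come, they differed at 13 of 495 aligned bases (97.4%). Of the 410 windows of 91 bases, the read length, in this stretch of *Lyz1*, 14 (3.41%) occurred without a difference in *Lyz2*. All other windows hold at least 1 base that tells the genes apart. In classical monocytes at steady state, 3 *Lyz1* UMIs stood beside 3689 *Lyz2* UMIs, a ratio of at most 0.00238 by its interval, which covers counting error only. The share of *Lyz2* molecules counted as *Lyz1* was not tested.

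The promoters are shown because the pair differs in class pattern while its starts are near copies. RefSeq windows on GRCm38.p6 from 250 bases before to 50 bases after the start were found for both genes, on the minus strand, at chr10:117292819-117293118 for *Lyz1* and chr10:117282223-117282522 for *Lyz2*. The RefSeq and GENCODE starts of *Lyz2* differ. Capitals mark AGGAAG, a core bound by ETS factors such as PU.1, or its reverse complement CTTCCT.
Lyz1: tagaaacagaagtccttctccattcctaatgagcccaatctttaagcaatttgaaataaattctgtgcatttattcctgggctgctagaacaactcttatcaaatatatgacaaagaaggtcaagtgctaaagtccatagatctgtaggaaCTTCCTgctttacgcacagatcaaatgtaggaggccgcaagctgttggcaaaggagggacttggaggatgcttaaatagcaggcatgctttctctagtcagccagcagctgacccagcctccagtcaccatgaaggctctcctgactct
Lyz2: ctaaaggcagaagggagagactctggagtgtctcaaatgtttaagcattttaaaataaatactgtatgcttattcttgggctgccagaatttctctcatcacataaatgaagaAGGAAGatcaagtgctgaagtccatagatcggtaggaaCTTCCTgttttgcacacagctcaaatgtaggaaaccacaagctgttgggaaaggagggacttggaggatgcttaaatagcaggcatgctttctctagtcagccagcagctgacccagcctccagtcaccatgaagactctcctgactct
The windows were identical at 249 of 298 aligned bases (83.6%). Identity rose towards the start, with 66.3% in the farthest 100 bases of the *Lyz1* window, 85% in the middle and 99% in the nearest. Motifs were searched on both strands. AGGAAG was found 1 time in *Lyz1*, at base 152 of the window, and 2 times in *Lyz2*, at bases 114 and 152, and 35.4% of 32851 promoters of the same length hold it. TTGCNNAA, a core of C/EBP factors, was found 1 time in *Lyz1* and not in *Lyz2* (10.8% of promoters). TGTGGT, a core of RUNX factors, was found 1 time in *Lyz2* and not in *Lyz1* (16.8%). The TATA-like TTAAATA was found 1 time in each, at base 223 (4.51%). A match is a run of letters and shows no binding.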

How the data were processed

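UMI counts per gene and cell barcode, as the authors deposited them without normalization, were read for both libraries. By the submitters' notes, Cell Ranger 3.1.0 mapped the reads to GRCm38.p6. The members and gene lists were chosen with earlier results of these data known. Cells passed the filter of the study (300 to 6500 genes, at most 5% mitochondrial UMIs). Each of 22 marker lists was scored per cell as the mean level of its markers (UMIs per 10000, scaled to the 95th percentile of cells with the marker and limited to 1). A class needed 2 UMIs of its markers and 1.5 times the score of the next lineage. This margin took the place of a doublet caller, and no caller was run. Resident and type-2 macrophages were drawn within the macrophage lineage, and a further class drawn there is not reported here. Genes other than the lysozymes were named as the 5 most alike to each lysozyme or as members of the lists. Coordinates are from GENCODE M21, while the authors counted on M24. Alternatives changed the filter, the gate, the clustering, the depth, the CPM, the cell with the most UMIs and the free RNA. The steps were tested on simulated data. Python 3.11.15, NumPy 2.4.6, SciPy 1.17.1, pandas 2.3.3, Matplotlib 3.10.9, Scanpy 1.11.5 with leidenalg 0.10.2 (2000 variable genes without the lysozymes, 20 components, 15 neighbours, resolution 1) and Biopython 1.88 (alignments) were used.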

Additional observations from a re-analysis of the deposited data

Results flagged for a closer look

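With all UMIs, *Lyz1* in *Yfp*+ over *Yfp*− macrophages pointed in opposite directions in the libraries. Over all macrophage gates, the ratio was 0.293 at steady state and 1.87 on AngII, and within the type-2 gate it was 0.750 and 3.15. Over all macrophage gates, the directions were not opposite with cells thinned to 1000 UMIs. The difference between the libraries was not tested. With cells thinned to 1000 UMIs after the *Yfp* call, the ratios were 0.378 and 0.984 over all macrophage gates, and 0.912 and 1.62 within the type-2 gate. With cells thinned to 500 UMIs, they were 0.398 and 1.55 over all macrophage gates, and 1.0 and 1.34 within the type-2 gate. At 1000 UMIs, the intervals of the AngII ratio over all macrophage gates (0.713 to 1.34) and of the steady-state ratio within the type-2 gate (0.614 to 1.35) both spanned 1.

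*Lyz1* was also found in barcodes that no class level used. The barcodes removed by the cell filter had 998 CPM at steady state (40 barcodes, with 87.3% of the UMIs in 1 of them) and 182 CPM on AngII (221 barcodes). Cells between classes had 1026 CPM at steady state (22 cells, with 86.6% of the UMIs in 1 of them) and 109.8 CPM on AngII (663 cells). In the T and B cell gates the level was 3.28 and 3.07 CPM, against 44.9 and 7.95 between clusters, where the steady-state cluster named T cell had 71.6.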

How the results depend on the processing

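Of 96 values of 8 main results under the alternatives, 43 lay within the 95% interval of the value given, 51 lay outside it and 2 turned direction, and 89 were within 1.5 times. Of 1131 values of the other 102 results, 661 lay within the interval, 468 outside, 2 turned, and 876 were within 1.5 times. The main values are the *Lyz1* to *Lyz2* ratios of type-2 and resident cells (0.417 and 0.0108 at steady state, 0.0616 and 0.0122 on AngII), the *Yfp*+ over *Yfp*− ratios of *Lyz1* in all macrophage gates (0.293 and 1.87) and the AngII over steady state ratios there (0.136 for *Lyz1*, 0.919 for *Lyz2*). The type-2 ratio stayed the highest of the macrophage gates with at least 20 cells in both libraries. Where values changed, the cause was not tested.

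With all deposited barcodes, the type-2 ratio on AngII was 0.0567, and the *Yfp* ratios were 0.336 and 2.10. With at least 1000 detected genes, the AngII over steady state ratios were 0.145 (*Lyz1*) and 0.944 (*Lyz2*). With no margin between lineages, the type-2 ratios were 0.380 and 0.0577, the steady-state *Yfp* ratio 0.389 and the *Lyz2* ratio between libraries 0.905. With clusters, the type-2 ratios were 0.322 and 0.0737, the resident ratio on AngII 0.0154, the *Yfp* ratios 0.411 and 2.21, and the ratios between libraries 0.172 (*Lyz1*) and 1.08 (*Lyz2*). The *Lyz2* ratio between type-2 clusters also turned, to 1.22. The steady-state cluster named type-2 was led in part by genes of cycling cells. The clusters named resident included some that scored highest on the Macrophage (general) list. On AngII these were 199 cells led by *Cxcl10*, *Ifit2* and *Ifit3*, with a ratio of 0.0241, and at steady state 44 cells led by *Mgp*, *Tagln* and *Ccl3*. The *Lyz2* level of cDC1 cells, lower on AngII between gates, was higher there between the clusters named cDC1. Those of the AngII library included a cluster of 139 cells led by genes of cycling cells.

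With cells thinned to 1000 UMIs, the resident ratio at steady state was 0.00676, the *Yfp* ratios 0.378 and 0.984, which turned, and the ratios between libraries 0.226 and 0.858. With cells thinned to 500 UMIs, the type-2 ratios were 0.320 and 0.0563, the resident ratios 0.00299 and 0.0148, the *Yfp* ratios 0.398 and 1.55, and the ratios between libraries 0.25 and 0.808. With the mean of the CPM of each cell, the resident ratio at steady state was 0.00853, the type-2 ratio on AngII 0.0538, the *Yfp* ratio on AngII 1.51, and the ratios between libraries 0.191 and 0.839. Without the cells with the most UMIs, the type-2 ratios were 0.286 and 0.0504, the resident ratios 0.00678 and 0.0108, the *Yfp* ratios 0.229 and 1.57, and the ratios between libraries 0.194 and 0.942. There, the *Lyz2* ratio of *Yfp*+ over *Yfp*− type-2 cells on AngII turned to 0.944. With the lymphocyte level subtracted, the *Lyz2* ratio between libraries was 0.879.

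A further 2 alternatives were chosen after seeing the data. With the gate on a profile thinned to 1000 UMIs, the type-2 ratios were 0.365 and 0.0814, the resident ratios 0.00641 and 0.0111, the steady-state *Yfp* ratio 0.389, and the ratios between libraries 0.162 and 0.954. With filtered cells of at least 5000 UMIs, the resident ratio on AngII was 0.0112, the *Yfp* ratio on AngII 2.07 and the *Lyz2* ratio between libraries 0.953.

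Depth limits the AngII library most, where 2288 of 4198 filtered cells had at least 1000 UMIs, and shallow cells show few markers, so that their gates are less sure. In the small steady-state gates, 1 or 2 cells can carry a value. With 1 library per condition, neither animals nor preparation can be told apart from AngII.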
